A study of Mus musculus with 8 samples.

Results

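The genes described here are 10 members of the SMAD signalling branch of the TGF-beta pathway and of its negative feedback, taken by symbol from the platform annotation of a mouse bead array. They are Smad2, Smad3 and Smad4, which carry the signal, Smad6, Smad7, Skil, Pmepa1 and Bambi, which restrain it, and Inhba and Inhbb, which encode activin subunits. Of the 10, 8 had a named probe (12 probes in all), and 6 had at least 1 probe with a detection p under 0.05 on at least 4 of 8 arrays, the minimum set for a test. The tested members were Smad2, Smad3, Smad7, Skil, Pmepa1 and Inhba, among 10724 genes tested. Smad4 and Inhbb had no probe under their symbol and were not analysed here. The probes of Smad6 and Bambi were not above background on any array.

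The arrays compared CD9high with CD9low progenitors, 4 samples of each, from epididymal white fat of lean C3H/HeOuJ mice aged 3 months. Every sample title carries the word chow. Both fractions were sorted from the stromal vascular cells as CD45- CD31- Gp38+ PDGFRα+ and differ by gate in surface CD9, a tetraspanin. The labels do not say whether a sample is 1 animal or a pool, so p-values measure the spread between these samples only. The titles number the samples of each fraction from 1 to 4. Whether samples with the same number share a source is not stated, and the reported fit was unpaired. RNA was amplified before labelling.

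In this pathway a TGF-beta or activin ligand joins type II and type I receptor kinases, which phosphorylate SMAD2 and SMAD3. These bind SMAD4 and enter the nucleus to switch genes on or off. Among the genes they switch on are the pathway's own brakes: the inhibitory SMADs, the co-repressor SnoN (Skil), the membrane adaptor PMEPA1 and the pseudoreceptor BAMBI. In adipose progenitors TGF-beta signalling through SMAD3 is known to restrain differentiation into adipocytes.

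Of 45281 probes, an array had 18618 (CD9low replicate 2) to 23121 (CD9low replicate 3) above background. One label field and the sort description name high CD9 for both fractions, so that the titles were followed. Cd9 itself checked them: it stood at 8.44 ± 0.14 in CD9high and 4.80 ± 0.52 in CD9low (normalized log2 intensity, SD, n = 4 each), with an adjusted p of 0.000187 by limma. The 9 stromal markers with a probe were above background on all 8 arrays. Of these 9, 0 passed an adjusted p of 0.05 by limma, and 1 was lower in CD9high at an unadjusted p under 0.05. CD9low replicate 2 stood apart from the rest, with a mean correlation of 0.844 with the other 7 arrays, against 0.893 to 0.937 for those. It also had the highest summed linear level of the 7 endothelial markers, 3697, where CD9high arrays had 1178 to 1693 and the other CD9low arrays 1100 to 2193. The 6 leukocyte markers summed to 265 to 1502 in CD9high and 216 to 1719 in CD9low, with the highest value again on CD9low replicate 2. The 6 mural markers summed to 1217, 1334, 1930 and 717 in CD9high replicates 1 to 4 and to 1602, 2047, 2851 and 1251 in CD9low replicates 1 to 4, higher in CD9low at every number. All 6 mural genes lay below 0 (CD9high minus CD9low, from -0.82 to -0.04, median -0.44), as did 5 of 6 tested endothelial genes (median -0.33), where 5830 of all 10724 genes tested lay below 0. Without CD9low replicate 2 it was 5 of 6 mural genes (median -0.38) and 4 of 6 endothelial genes (median -0.11). Mesothelial markers summed to 201 to 300.2 in CD9high and 154 to 250 in CD9low, and adipocyte markers to 169 to 360 in CD9high and 176 to 346 in CD9low. Ms4a1 of the leukocyte, Krt19 of the mesothelial and Plin1 and Retn of the adipocyte markers were above background on 0 arrays. Of the genes tested in these 5 lists, 0 passed the test and 1, a mural gene, had an unadjusted p under 0.05. Their part in the results below was not tested. For members and pathway lists, calls that CD9low replicate 2 changed are given without it too, as are some of the values it moved.

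Differences below are log2 values of CD9high minus CD9low with their standard error (SE), from a limma fit across all 10724 genes with Benjamini-Hochberg adjustment. Of the 6 tested members, 0 passed an adjusted p of 0.05, against 1.69% of all genes tested. At an unadjusted p under 0.05, 4 of the 6 differed, 3 higher and 1 lower, where the share over all genes was 10.7% (5.32% higher and 5.34% lower). The fractions did not overlap for 4 of the 6, Pmepa1 and Skil higher and Smad3 and Smad7 lower in CD9high, where the share over all genes was 7.69% (3.92% higher and 3.78% lower). Among feedback genes, Pmepa1 and Skil thus stood on one side and Smad7 on the other. Smad7 did so by a gap of only 0.0040, with an unadjusted p of 0.0732 by limma. Probe by probe, in a limma fit of all 18085 named probes, 0 of the 8 tested probes passed (1.22% of all), 6 had an unadjusted p under 0.05 (9.55% of all) and 5 had no overlap (6.80% of all).

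**Figure D1:**
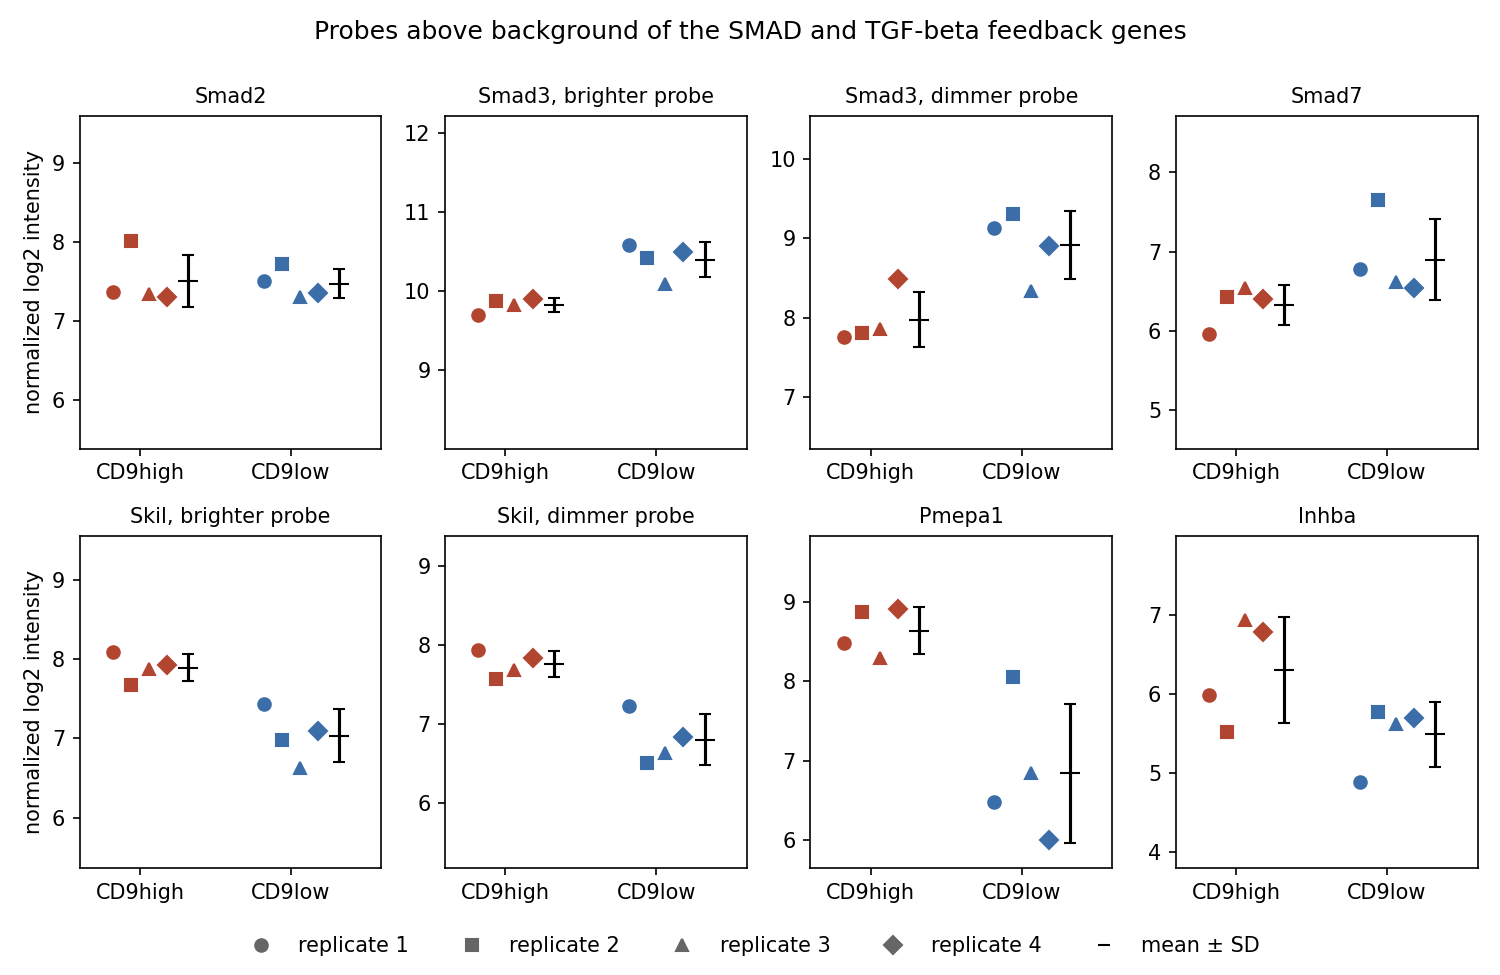
Normalized log2 intensity (vertical axis, each panel spanning the same range) of the 8 tested probes of the 6 members, by array, with mean ± SD for each fraction of 4. Pmepa1 and Skil are higher in CD9high with no overlap, and Smad3 (brighter probe) and Smad7 lower with no overlap, Smad7 by a margin too small to see.

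Pmepa1 gave the largest difference among the members. Its product sits in membranes, binds SMAD2 and SMAD3, keeps them from the receptor and recruits ubiquitin ligases of the NEDD4 family. Pmepa1 stood at 8.48, 8.88, 8.30 and 8.91 in CD9high replicates 1 to 4, against 6.48, 8.05, 6.84 and 5.99 in CD9low replicates 1 to 4. The fractions did not overlap, but CD9low replicate 2 came within 0.25 of the lowest CD9high array and the CD9low arrays spread widely. The deposited signals were likewise apart, with at least 259 units in CD9high and at most 195 units in CD9low. The mean was 8.64 ± 0.30 in CD9high and 6.84 ± 0.88 in CD9low (SD, n = 4 each), a log2 difference of 1.80 (SE 0.40), or 3.49-fold, with an adjusted p of 0.0525 by limma. In this bulk RNA a higher level per cell and a larger share of cells with the transcript cannot be told apart.

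Whether Pmepa1 passed depended most on 1 array. Without CD9low replicate 2 the difference was 2.20 and the adjusted p 0.00278, while without any other single array the adjusted p was 0.118 to 0.153. Over 22 alternative analyses the difference ran from 1.43 to 2.20 and the adjusted p from 0.00278 to 0.332, passing in 6 and missing in 16. On slide 1, with 3 arrays per fraction, the difference was 1.43, and on slide 2, with 1 array each and no test, it was 2.92. With the slide as a block the adjusted p was 0.0744. Whether the endothelial and leukocyte signal of CD9low replicate 2 bears on its Pmepa1 level was not tested.

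**Figure D2:**
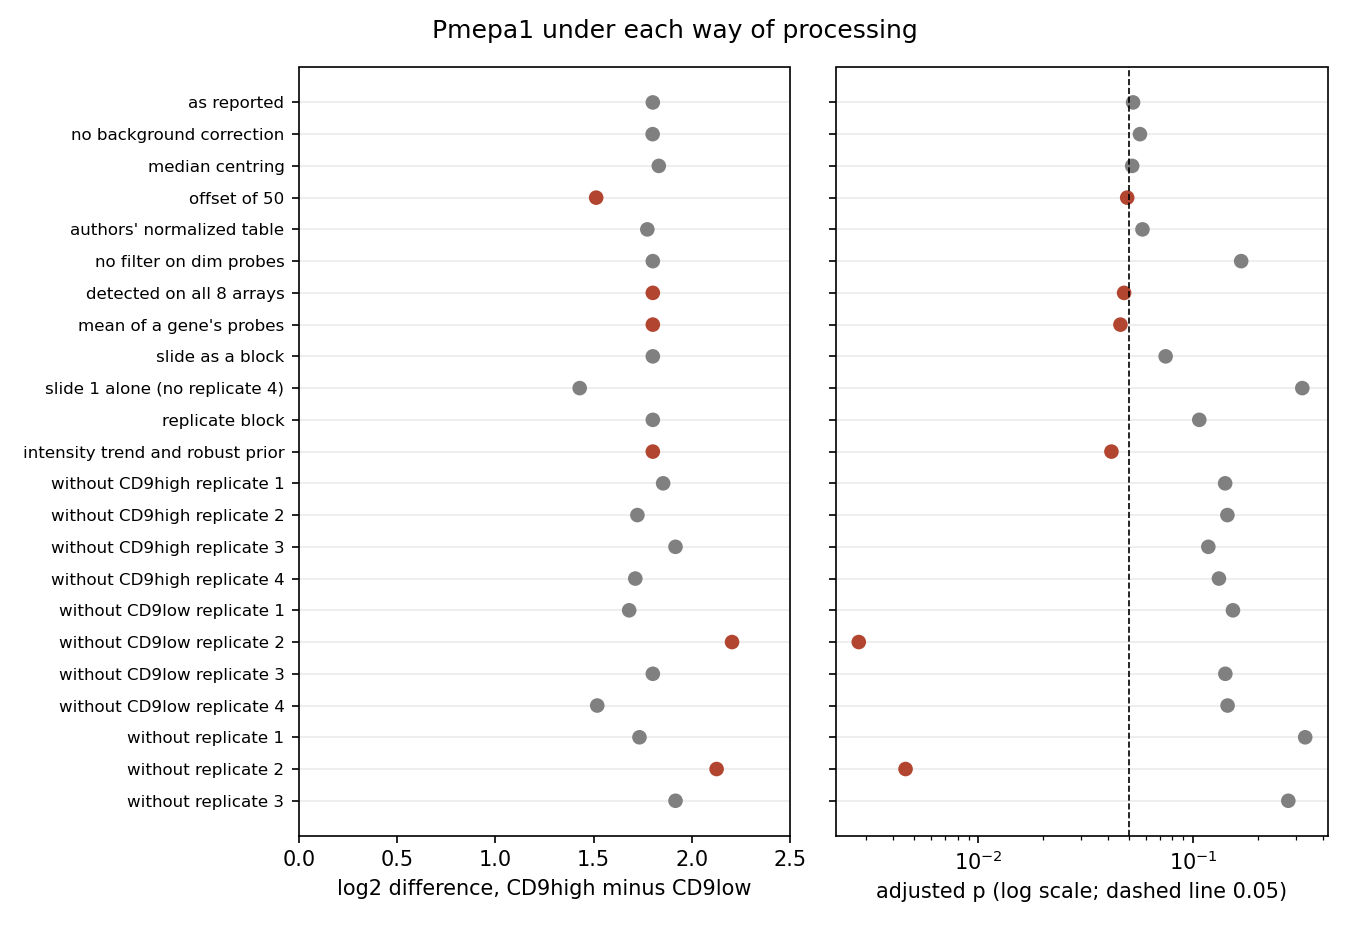
Pmepa1 under the reported analysis and 22 alternatives (rows): the log2 difference of CD9high minus CD9low on the left, and its adjusted p on a log axis on the right, red where it is under 0.05. The difference stays between 1.43 and 2.20, while the adjusted p falls clearly under 0.05 in the analyses that leave out CD9low replicate 2.

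A second Pmepa1 probe was dim and fell short of the filter. It was above background on 3 of 4 CD9high arrays and 0 of 4 CD9low arrays. Its deposited signals were 6.41, 21.9, 20.3 and 52.9 in CD9high and 8.17, 2.52, -3.80 and 8.77 in CD9low. The arrays above background were CD9high replicates 2, 3 and 4. Against the dimmest detected signal on the CD9low arrays, the CD9high mean was at least 1.34-fold higher, with no test.

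Skil encodes SnoN, a nuclear protein that binds SMAD complexes and represses their target genes, and that is itself a target of the pathway. Its brighter probe stood at 8.09, 7.68, 7.87 and 7.93 in CD9high against 7.44, 6.97, 6.63 and 7.09 in CD9low. The fractions were separated by 0.24 between the lowest CD9high array, replicate 2, and the highest CD9low array, replicate 1. The mean was 7.89 ± 0.17 in CD9high and 7.03 ± 0.33 in CD9low. The difference was 0.86 (SE 0.23, adjusted p = 0.131 by limma, unadjusted p = 0.00402), or 1.81-fold.

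A second Skil probe gave the same picture. It stood at 7.94, 7.57, 7.69 and 7.83 in CD9high against 7.24, 6.51, 6.64 and 6.84 in CD9low, again with no overlap. In the fit of all named probes its difference was 0.95 (SE 0.24, adjusted p = 0.104). With both probes averaged, the difference of Skil was 0.90 with an adjusted p of 0.0656, the lowest of 22 alternatives, which reached 0.570. Skil was steady across slides, at 0.87 on slide 1 and 0.84 on slide 2, and it moved little without CD9low replicate 2, at 0.84. The remaining Skil probe was above background on 1 array, CD9high replicate 4, and was not tested.

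Smad7, the inhibitory SMAD that blocks the TGF-beta type I receptor and brings ubiquitin ligases to it, lay on the other side. It stood at 5.96, 6.42, 6.54 and 6.40 in CD9high against 6.78, 7.65, 6.61 and 6.54 in CD9low. The fractions met almost exactly: CD9high replicate 3 and CD9low replicate 4 differed by 0.0040, and with median centring of the arrays they overlapped. The deposited signals, not normalized between arrays, overlapped as well, with 92.3 units on CD9high replicate 3 and 80.6 units on CD9low replicate 4. The mean was 6.33 ± 0.25 in CD9high and 6.90 ± 0.51 in CD9low. The difference was -0.57 (SE 0.29, adjusted p = 0.534 by limma, unadjusted p = 0.0732). Its 95% interval, not adjusted for the number of genes, ran from -1.20 to 0.06 and so held both signs. CD9low replicate 2 again held the highest value, and without it the difference was -0.32 (adjusted p = 0.728, where the alternatives ran from 0.474 to 0.781). The difference was -0.71 on slide 1 and -0.14 on slide 2.

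Smad6, the inhibitory SMAD known mainly from the BMP arm, and Bambi, a receptor-like protein with no kinase domain, gave no signal above background. The Smad6 signals ran from -2.28 to 7.27 in CD9high and from -2.54 to 3.01 in CD9low, with detection p from 0.119 to 0.679. The Bambi signals ran from -4.85 to -0.839 in CD9high and from -3.20 to 3.46 in CD9low, with detection p from 0.208 to 0.862. No fold is given for either, since both fractions were at the background. The sequence around the Smad6 start is shown because it holds the palindrome GTCTAGAC, a SMAD binding element, in capitals (RefSeq, GRCm38.p6, minus strand, chr9:64022045-64022074).
Smad6: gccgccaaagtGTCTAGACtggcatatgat
This palindrome stands in 0.213% of 32851 windows of 300 bases around gene starts. The match describes the letters only.

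Of the signal transducers, Smad3 was lower in CD9high on both of its probes, without passing the test. SMAD3 is the receptor-activated SMAD that binds the DNA of target genes directly. Its brighter probe stood at 9.71, 9.87, 9.83 and 9.91 in CD9high against 10.58, 10.42, 10.09 and 10.50 in CD9low. The CD9high values lay close together, all below the lowest CD9low array, replicate 3, by at least 0.18. The deposited signals, not normalized between arrays, did overlap, with 1206 units on CD9high replicate 4 and 1164 units on CD9low replicate 3. The mean was 9.83 ± 0.09 in CD9high and 10.40 ± 0.22 in CD9low. The difference was -0.57 (SE 0.21, adjusted p = 0.326 by limma, unadjusted p = 0.0197). That is a level 1.48-fold higher in CD9low.

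The dimmer Smad3 probe lay in the same direction, by a larger value. It stood at 7.76, 7.80, 7.85 and 8.48 in CD9high against 9.13, 9.31, 8.33 and 8.90 in CD9low. CD9high replicate 4 lay above CD9low replicate 3, so that the fractions overlapped on this probe. In the fit of all named probes its difference was -0.94 (SE 0.28, adjusted p = 0.206), and for the brighter probe the adjusted p in that fit was 0.401. By slide the dimmer probe gave -1.12 on slide 1 and -0.41 on slide 2. The brighter probe gave -0.56 on slide 1 and -0.59 on slide 2, and -0.56 without CD9low replicate 2. Across 22 alternatives Smad3 stayed between -0.76 and -0.47 and its adjusted p between 0.119 and 0.741.

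Smad2, the other receptor-activated SMAD of this arm, had a difference near 0. It stood at 7.37, 8.01, 7.35 and 7.31 in CD9high against 7.51, 7.73, 7.31 and 7.36 in CD9low. The values of both fractions intermingled, with CD9high replicate 2 the highest. The difference was 0.03 (SE 0.24, adjusted p = 0.977 by limma) with a 95% interval from -0.49 to 0.56, so that the data leave room for a change of either sign within that span. The interval of Smad3, not adjusted for the number of genes, ran from -1.03 to -0.11. Whether Smad2 and Smad3 differed from each other in their response was not tested.

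Inhba encodes the beta A subunit, which pairs with itself to form activin A, a ligand that signals through SMAD2 and SMAD3. It stood at 5.99, 5.52, 6.94 and 6.78 in CD9high against 4.88, 5.76, 5.62 and 5.70 in CD9low. CD9high replicates 3 and 4 were clearly the highest, with signals of 126 and 119 units where the other 6 arrays had 12.8 to 40.3 units, and CD9high replicate 2 lay within the CD9low range. The mean was 6.30 ± 0.67 in CD9high and 5.49 ± 0.41 in CD9low. The difference was 0.81 (SE 0.35, adjusted p = 0.437 by limma, unadjusted p = 0.0412). Over 22 alternatives the difference ran from 0.53 to 1.17 and its adjusted p from 0.129 to 0.738. Without CD9high replicate 2 the fractions no longer overlapped.

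**Figure D3:**
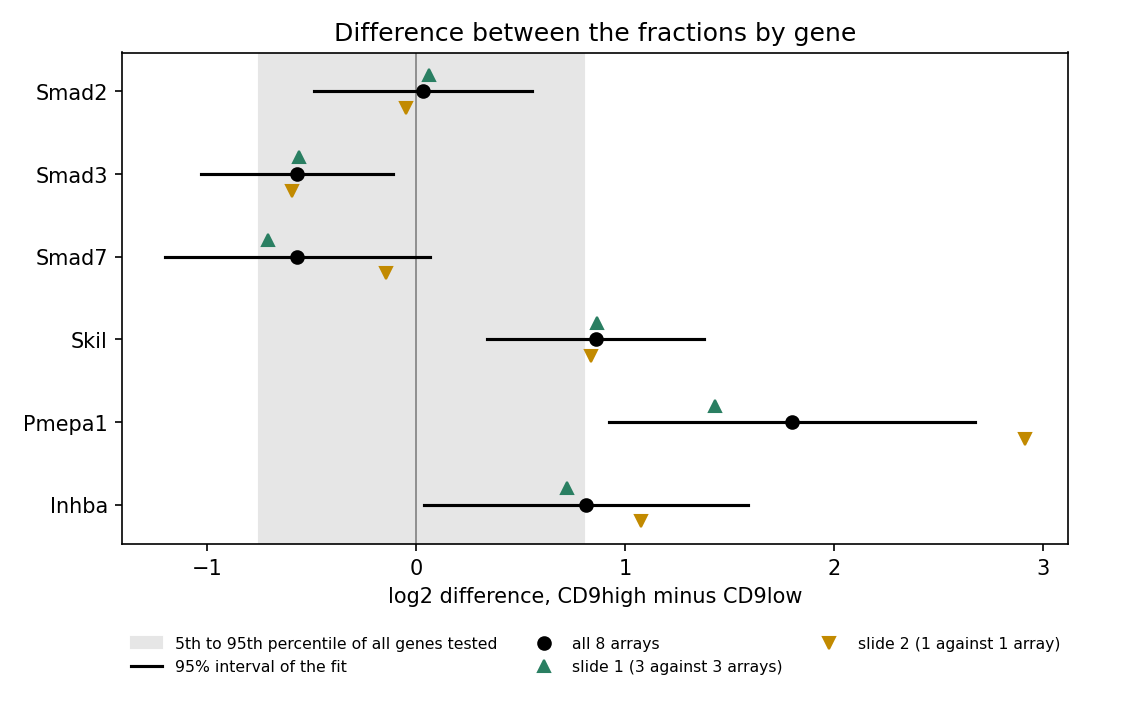
Log2 difference of CD9high minus CD9low (horizontal axis) for the 6 tested members: points for all 8 arrays with 95% intervals of the fit, and triangles for each slide. Smad3 (brighter probe) and Skil give nearly the same value on both slides, Pmepa1 a larger one on slide 2 (2.92) than on slide 1 (1.43). The dimmer Smad3 probe, not drawn, gave -1.12 on slide 1 and -0.41 on slide 2. The grey band holds the middle of all 10724 genes tested, from -0.75 to 0.80.

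Among the tested members, reference promoters (RefSeq, GRCm38.p6) were examined only for Smad3, lower in CD9high, and Inhba, higher in CD9high. Those of Smad2, Smad7, Skil and Pmepa1 were not examined, so nothing is said of their SMAD boxes. The sequences shown are the 250 bases before the gene start, with the short SMAD box AGAC, or GTCT on the other strand, in capitals. Smad3 lies on the minus strand at chr9:63757995-63758244 and Inhba on the plus strand at chr13:16011601-16011850.
Smad3: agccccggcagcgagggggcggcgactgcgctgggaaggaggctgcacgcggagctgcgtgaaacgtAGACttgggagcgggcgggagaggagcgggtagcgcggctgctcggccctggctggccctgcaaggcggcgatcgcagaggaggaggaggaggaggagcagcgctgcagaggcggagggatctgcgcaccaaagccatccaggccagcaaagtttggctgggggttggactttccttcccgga
Inhba: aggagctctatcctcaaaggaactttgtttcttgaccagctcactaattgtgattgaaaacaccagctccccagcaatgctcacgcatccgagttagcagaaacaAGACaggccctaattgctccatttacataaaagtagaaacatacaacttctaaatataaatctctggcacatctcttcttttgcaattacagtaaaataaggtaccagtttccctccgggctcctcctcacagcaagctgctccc
Each holds 1 AGAC box in the window of 300 bases that runs 50 bases past the start, where 88% of all windows hold at least 1 and the median is 2. The palindrome GTCTAGAC, whose ends are this same box, is in neither. The windows differ in base composition, with 67.7% G and C for Smad3 and 47.7% for Inhba.

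Set side by side by role, the tested feedback genes (Smad7, Skil and Pmepa1) had a median difference of 0.86 and the transducers (Smad2 and Smad3) one of -0.27, while the median of all genes tested was -0.04. The distance between both medians was 1.13. It is given without a test, since the members were chosen with results known and only 3 and 2 genes stand behind it. By array, with each gene centred on its own mean, the feedback median minus the transducer median was 0.89, 0.08, 0.63 and 0.66 in CD9high and -0.27, 0.04, -0.73 and -0.50 in CD9low. The replicates numbered 2 lay closest together, at 0.08 in CD9high and 0.04 in CD9low. Were the dim probes of Smad6 and Bambi included, the distance would be 0.36.

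**Figure D4:**
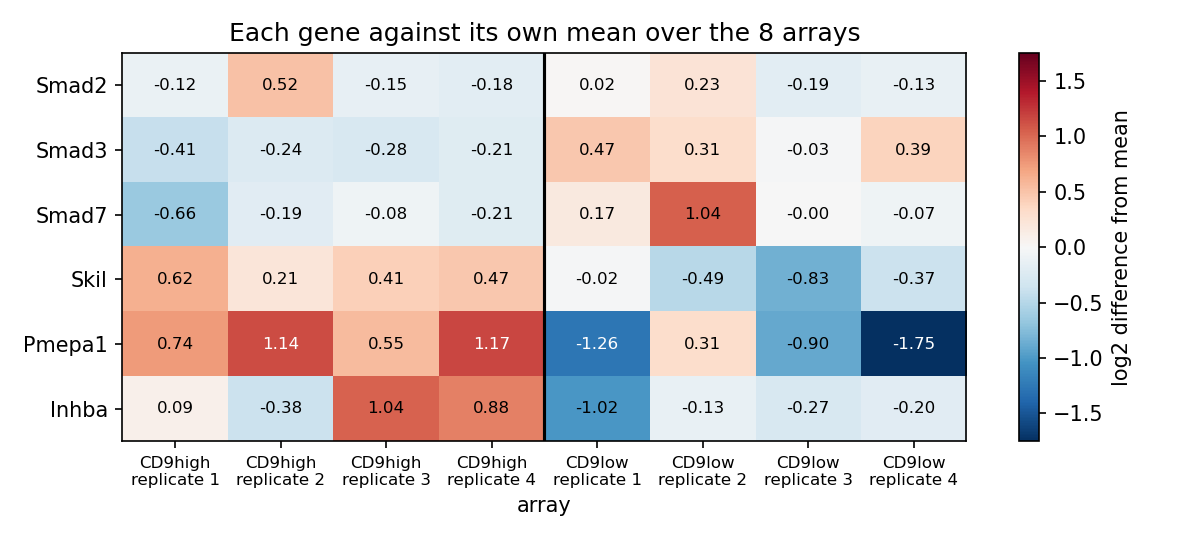
Each tested member's log2 value minus its mean over the 8 arrays (rows, genes; columns, arrays, CD9high left of the line), red above and blue below the mean. Skil and Pmepa1 are red on all CD9high arrays, Smad3 and Smad7 are blue there, and CD9low replicate 2 is the array where Smad7 (1.04) and Pmepa1 (0.31) stand highest in CD9low.

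Other genes of the pathway were read from lists of the parts around the members, where called genes made up 1.13% (higher) and 0.559% (lower) of all genes tested. Of 6 TGF-beta ligands and receptors, 1 passed the test and was higher, 0 were lower, and the median was 0.43. The gene was the ligand Tgfb3, at 7.66 ± 0.10 in CD9high and 6.31 ± 0.59 in CD9low. The difference was 1.35 (SE 0.29, adjusted p = 0.0495). Its call was lost in 17 of 22 alternatives, among them the fit with the replicate number as a block (adjusted p = 0.134 by limma).

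Of 20 TGF-beta response genes tested, 2 were higher and 0 lower past the test, with a median of 0.01 and 10 on either side of 0. Without CD9low replicate 2 the median was -0.02. Those that passed were the matrix genes Tgfbi and Ccn2, which differed by 2.91 (SE 0.39, adjusted p = 0.00528) and 2.37 (SE 0.48, adjusted p = 0.0379). Ccn2 stood at 11.30, 11.70, 11.22 and 11.40 in CD9high against 8.71, 10.67, 8.78 and 7.99 in CD9low. As for Pmepa1, CD9low replicate 2 was the highest of its fraction, and without that array the difference of Ccn2 was 2.91 (adjusted p = 0.00060). The Ccn2 call was lost in 12 of 22 alternatives and that of Tgfbi in 2. With the replicate number as a block, the adjusted p by limma was 0.0611 for Ccn2 and 0.0271 for Tgfbi.

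Among proteins that act on SMADs directly, 0 of 24 tested genes passed in either direction, at a median of 0.12. Without CD9low replicate 2 that median was 0.05. The smallest p values belonged to the ubiquitin ligase genes Nedd4l, at -0.78 (SE 0.24, adjusted p = 0.214), and Wwp1, at 0.66 (SE 0.24, adjusted p = 0.323). Nedd4l was lower in CD9high with no overlap, at 6.00, 5.20, 5.67 and 5.31 against 6.44, 6.47, 6.04 and 6.37 in CD9low. At an unadjusted p under 0.05, 1 gene of this list was higher and 1 lower, and both are these.

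The activin side likewise held 0 called genes of 7 tested, with a median of -0.08. The smallest p values were those of the activin antagonist gene Fstl3, at 1.02 (SE 0.32, adjusted p = 0.227), and of the type II receptor gene Acvr2b, at -1.68 (SE 0.60, adjusted p = 0.322). Acvr2b stood at 9.14 on CD9low replicate 2 and at 6.25 to 7.79 on the other CD9low arrays, and without that array its difference was -1.12 (adjusted p = 0.435). At an unadjusted p under 0.05, 1 of the 7 was higher and 2 lower.

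In the BMP arm, the receptor-activated Smad1 stood at 9.45 ± 0.53 in CD9high and 9.39 ± 0.18 in CD9low. The difference was 0.06 (SE 0.28, adjusted p = 0.961). Smad5 differed by 0.95 (SE 0.71, adjusted p = 0.699), with CD9low replicate 2 at 4.24 and the other CD9low arrays at 7.27 to 7.73. Without that array its difference was 0.14 and did not pass the test. In the fit of all 8 arrays, 0 of the 2 tested passed and 0 had an unadjusted p under 0.05. Of 9 BMP response genes, 1 was higher and 0 lower, with a median of 0.06. It was Id2, an inhibitor of basic helix-loop-helix factors, at 8.58 ± 0.17 in CD9high and 7.57 ± 0.19 in CD9low. The difference was 1.01 (SE 0.21, adjusted p = 0.0424). Its call was lost in 16 of 22 alternatives, among them the fit with the replicate number as a block (adjusted p = 0.125 by limma). At an unadjusted p under 0.05, 3 genes of this list were higher and 3 lower. Among the lower was Bmper, at -0.85 (adjusted p = 0.351 by limma). Without CD9low replicate 2, Bmper passed the test as lower, at -1.18 (adjusted p = 0.0140 by limma).

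**Figure D5:**
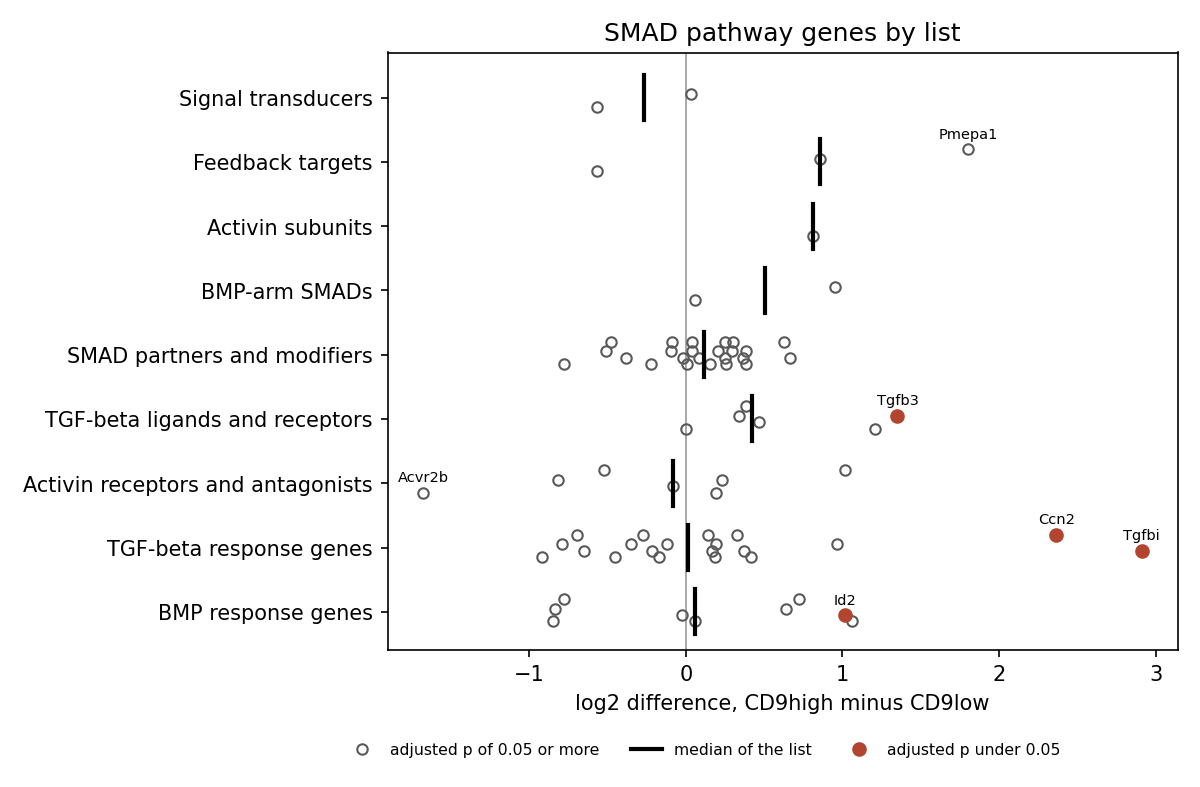
Log2 difference of CD9high minus CD9low (horizontal axis) for each tested gene of 9 pathway lists (rows), filled where the adjusted p is under 0.05, with black bars at list medians. Only Tgfb3, Ccn2, Tgfbi and Id2 are filled, and the response lists spread to both sides of 0.

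The genes whose pattern was most like those of Pmepa1 and Skil were taken by the smallest root mean square difference over the 8 arrays after each gene was centred on its own mean. For Pmepa1 they included Thbs2, a thrombospondin gene, at 0.277, and the homeobox gene Meox2 at 0.303 on the log2 scale. Thbs2 differed by 2.02 (adjusted p = 0.0467), while Meox2 differed by 1.44 (adjusted p = 0.177) with overlap between the fractions. For Skil they were the membrane protein gene Flrt3 at 0.113, the retinol binding protein gene Rbp4 at 0.125 and the carboxylesterase gene Ces2g at 0.145. These 3 differed by 0.83, 0.92 and 0.66 with adjusted p of 0.107, 0.0670 and 0.322, each with no overlap between the fractions. Since the genes named here were chosen by likeness over the same 8 arrays, similar differences follow in part from that choice.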

How the data were processed

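RNA from 8 sorted samples was profiled on Illumina mouse bead arrays. The deposited signal intensity values were not normalized between arrays and reach below 0. The deposited table also gives a detection p-value per probe and array, per the file headers. The submitters' processing notes name GenomeStudio, with a version not stated there. A second deposited table, of intensity values nearly alike in distribution across arrays, served as an alternative; how it was made is not stated.

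Samples were grouped by title. Another label of the CD9low samples speaks of high CD9, and the sort description gives the CD9high gate for both fractions. Slide 1 held replicates 1 to 3 of each fraction and slide 2 held both arrays of replicate 4.

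With limma 3.58.1 in R 4.3.3, neqc fitted normexp with negative controls inferred from detection p, added an offset of 16, quantile normalized and took log2. The offset compresses differences of dim probes. Where a gene had several tested probes, the brightest on average stood for it. lmFit and eBayes compared the fractions without a block. On simulated data for this comparison with 10724 genes, 21 of 100 genes changed by 1 on the log2 scale and 96 of 100 changed by 2 were called, with 7 false calls among the unchanged genes. The simulated noise was independent between genes and arrays. It held no deviating array such as CD9low replicate 2, so these rates may not hold for the real arrays.

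Gene names are those of the platform annotation. Antisense or near-identical transcripts were not checked. The members and lists were chosen with earlier results of these data known. Named genes are all members, Cd9 and the gate genes, in other lists those past the test or, where none passed, the 2 with the smallest p, and the 3 most like each of the 2 members with the largest difference, of which 1 is not reported here. Marker genes above background on no array are named outside this rule, as is Bmper, whose call changed without CD9low replicate 2. The gate genes Pdgfra, Pdpn, Ptprc and Pecam1 differed by 0.10, -0.05, -0.18 and -0.40 (adjusted p from 0.804 to 0.953). Without CD9low replicate 2 they differed by 0.01, -0.01, -0.04 and -0.02. Alternatives are listed with their effect at the end; those that leave out arrays keep the normalization of all 8.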

Additional observations from a re-analysis of the deposited data

Results flagged for a closer look

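In 3 of the 16 sets of 4 arrays examined for the tested member probes, 1 array lay farther from the rest than Dixon's test allows; chance flags about 1 set in 20. Smad2 on CD9high replicate 2 stood at 8.01, where the other CD9high arrays had 7.31 to 7.37. On the dimmer Smad3 probe CD9high replicate 4 stood at 8.48, against 7.76 to 7.85 on the others. Inhba on CD9low replicate 1 stood at 4.88, against 5.62 to 5.76 on the others. No explanation was tested.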

How the results depend on the processing

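Results were recomputed under 22 distinct alternatives, slide 1 alone being the same arrays as leaving out both replicates numbered 4; Cd9 and the named-probe counts had 21. For the members, Smad3 and Smad7 kept a negative and Skil, Pmepa1 and Inhba a positive difference in all 22, and Smad3, Smad7, Skil and Inhba missed the threshold in all 22. Smad2 ran from -0.13 to 0.12 when arrays were left out: -0.13 without CD9high replicate 2, -0.02 without CD9low replicate 3, -0.0073 without CD9low replicate 4 and -0.05 without both replicates numbered 2. Pmepa1 passed, as the 1 member called higher, with an offset of 50 (adjusted p = 0.0493), with probes detected on all 8 arrays (0.0477), with the mean of a gene's probes (0.0459), with an intensity trend and robust prior (0.0416), and without CD9low replicate 2 (0.00278) or both replicates numbered 2 (0.00458). The number of members called ran from 0 to 1 higher and stayed at 0 lower over the 12 analyses that leave out arrays. The members without overlap, counted after the data were seen, numbered 4, with 3 under median centring (without Smad7) and 5 without CD9high replicate 2 or both replicates numbered 2 (with Inhba).

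Counts over all genes moved more. The reported 121 higher and 60 lower genes, and 150 higher and 70 lower named probes, became 35 and 13 genes and 49 and 14 probes on slide 1 alone. With the replicate number as a block they were 56 and 20 genes and 73 and 24 probes. Same-numbered samples deviated together with correlations of -0.10 to 0.22, 1 of the 4 pairs being below 0. The reported fit did not take the numbers as pairs. The pair below 0 was that numbered 2, which holds CD9low replicate 2, so the correlations cannot decide whether the samples are paired. Of 4 CD9high samples, 2 correlated best with their own number. Leukocyte marker sums by number were 763, 1502, 615 and 265 in CD9high and 804, 1719, 770 and 216 in CD9low. With the block no member passed (Pmepa1 adjusted p = 0.107), and the calls of Ccn2 (0.0611), Tgfb3 (0.134) and Id2 (0.125) were lost, while Tgfbi passed (0.0271). Median centring gave 32 lower genes and 35 lower probes, no filter on dim probes 94 higher probes, and detection on all 8 arrays 96 higher probes. Leaving out arrays gave 15 to 190 higher and 3 to 80 lower genes, 21 to 242 higher and 3 to 96 lower probes, and a distance between feedback and transducer medians of 1.02 to 1.29. That distance was 0.36 with no filter, where Smad6 and Bambi enter. Cd9 passed in all 21. The causes of these shifts were not tested. Signal over background limits the dim probes of Smad6 and Bambi and the second Pmepa1 probe.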
